A study of Mus musculus with 24 samples.

Results

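Polycomb proteins form 2 families of complexes that keep genes silent through marks on histones, and 9 of their genes were followed here in the striatum of a mouse model of Huntington's disease. The genes were Ezh1, Ezh2, Eed and Suz12, which encode the core of Polycomb repressive complex 2 (PRC2), and Cbx2, Cbx7, Cbx8, Ring1 and Rnf2, which encode subunits of Polycomb repressive complex 1 (PRC1). They were chosen by name, with earlier results of these data known, and all 9 were found among the 24340 genes that the deposited tables share. RNA of the striatum was sequenced in 24 libraries from male R6/1 mice and their wild type (WT) littermates on a C57BL/6J background. R6/1 mice are hemizygous for a transgene that holds exon 1 of human HTT, driven by the HTT promoter, with an expanded CAG repeat, and WT mice lack it.

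The 4 groups were WT-vehicle (5 libraries), R6/1-vehicle (6 libraries), WT-RGFP109 (6 libraries) and R6/1-RGFP109 (7 libraries). RGFP109, an inhibitor selective for the histone deacetylases HDAC1 and HDAC3, was injected intraperitoneally at 30 mg/kg, 5 times a week for 3 weeks. Vehicle mice were injected with DMSO in saline on the same schedule. Treatment began at 11 to 14 weeks of age, and striata were taken 18 hours after the last injection, at 14 to 17 weeks. Each table holds 1 pooled value per group, in FPKM (fragments per kilobase of transcript scaled to the number of mapped fragments), so the values used here show neither the spread between mice nor the sequencing depth. The test results that the authors deposited in the same tables were not used, and no difference given here was tested against the spread between mice. Most counts past a fold and many of the differences are set beside the same quantity over all genes, which does not measure that spread. The vehicle comparison of genotypes and the RGFP109 comparison of genotypes share no library, so each gene's genotype difference was measured in 2 separate sets of mice.

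PRC2 places methyl groups on lysine 27 of histone H3, through EZH1 or EZH2 as its catalytic subunit, with EED and SUZ12 needed for the complex to form and to act. EED binds the trimethylated mark and so helps PRC2 spread it, while EZH2 is typical of dividing cells and EZH1 of cells that no longer divide. Canonical PRC1 reads that mark through a CBX protein and places ubiquitin on histone H2A through RING1 or RNF2 (also called RING1B), its 2 alternative E3 ligases. In the brain, PRC2 is known to keep genes of other cell fates silent in adult neurons, striatal projection neurons among them.

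By more than 0.2 on the log2 scale, a cutoff not fixed in advance, 4 of the 9 genes were higher in both R6/1 groups. These were Cbx8, Rnf2, Suz12 and Eed. Their promoters are printed because these 4 genes make up that set, as the 250 bases before the RefSeq start site of each (GRCm38.p6), 5′ to 3′ on the strand of the gene, with matches to the searched motifs in capitals. The windows are chr11:119040914-119041163, minus strand, for Cbx8; chr1:151500992-151501241, minus strand, for Rnf2; chr11:79992856-79993105, plus strand, for Suz12; and chr7:89980977-89981226, minus strand, for Eed. The windows of Cbx8, Suz12 and Eed abut the measured gene, while that of Rnf2 does not, as the measured gene starts at 151500823 on the minus strand.
Cbx8: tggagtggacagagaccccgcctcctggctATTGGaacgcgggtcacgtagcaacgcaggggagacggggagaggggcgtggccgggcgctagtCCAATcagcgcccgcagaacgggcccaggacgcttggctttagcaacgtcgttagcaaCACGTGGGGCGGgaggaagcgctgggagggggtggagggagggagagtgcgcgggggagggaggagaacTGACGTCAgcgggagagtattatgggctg
Rnf2: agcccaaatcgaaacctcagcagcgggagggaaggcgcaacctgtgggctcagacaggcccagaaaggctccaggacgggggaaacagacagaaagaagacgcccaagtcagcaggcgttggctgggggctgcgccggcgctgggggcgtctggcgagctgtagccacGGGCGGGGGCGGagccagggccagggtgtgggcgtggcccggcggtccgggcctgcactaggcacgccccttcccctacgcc
Suz12: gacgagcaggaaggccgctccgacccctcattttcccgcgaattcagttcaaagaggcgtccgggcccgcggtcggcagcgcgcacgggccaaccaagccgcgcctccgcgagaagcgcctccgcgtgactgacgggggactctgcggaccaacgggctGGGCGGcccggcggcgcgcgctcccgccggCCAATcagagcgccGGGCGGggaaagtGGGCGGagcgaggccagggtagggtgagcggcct
Eed: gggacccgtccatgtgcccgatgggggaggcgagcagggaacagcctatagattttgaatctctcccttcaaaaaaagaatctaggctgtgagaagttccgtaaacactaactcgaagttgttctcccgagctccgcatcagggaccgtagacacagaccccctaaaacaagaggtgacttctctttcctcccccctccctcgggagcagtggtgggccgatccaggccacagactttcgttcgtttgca
Promoters were listed for 8 of the 9 genes. The median number of CpG dinucleotides over the 32851 RefSeq promoters was 6 in 250 bases, and these windows held 37 in Suz12, 22 in Cbx8, 20 in Rnf2 and 12 in Eed, all above it. The other listed windows were above it too, with 30 in Ring1, 23 in Cbx7, 23 in Ezh2 and 14 in Ezh1. Letters were searched on both strands. The CCAAT box (CCAAT), in 33.8% of all promoters, was found 2 times in Cbx8 and 1 time in Suz12, and the GC box (GGGCGG), in 32.7% of all promoters, was found 3 times in Suz12, 2 times in Rnf2 and 1 time in Cbx8. Outside the set of 4, the CCAAT box was found 3 times in Ezh2 and 1 time in Cbx7, and the GC box 2 times in Ring1 and 1 time in Cbx7. The Cbx8 window also held the cyclic AMP response element TGACGTCA, present in 1.55% of all promoters, and the E-box CACGTG, present in 6.02%, which abuts the GC box so that both stand in 1 run of capitals. The Eed window held none of the motifs, and neither the ETS letters CCGGAAG (6.91% of promoters) nor the E2F letters TTTGGCGC (0.417%) were in any of the 8 windows. No motif was shared by all 4 genes.

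All 9 genes were above 1 FPKM in every group. FPKM is scaled to transcript length, so levels can be set side by side between genes. Averaged over the 4 groups, Cbx7 was the most abundant at 27.5 FPKM, followed by Ezh1 at 20.6 FPKM and Ring1 at 17.8 FPKM. Suz12 (10.6 FPKM) and Cbx8 (10.5 FPKM) lay next to each other, as did Rnf2 (8.53 FPKM) and Eed (8.43 FPKM), and the order within each pair was not the same in every group. A group's value varied between the tables that hold it by at most 3.9% to 3.95%, depending on the member. That shift was nearly the same for all members and measures neither noise nor the spread between mice. It follows genotype, since values were lower where the WT groups were paired and higher where the R6/1 groups were paired. For Ezh1, WT-vehicle was 20.5 FPKM beside WT-RGFP109 and 21.3 beside R6/1-vehicle. R6/1-vehicle was 21.0 beside R6/1-RGFP109 and 20.3 beside WT-vehicle. Averaged levels thus stand slightly higher in R6/1 against WT than the log2 differences and folds, which are free of this shift. Ezh2 at 3.16 FPKM and Cbx2 at 1.64 FPKM were the lowest. Among genes whose 4 values average above 0.1 FPKM, 79.4% lay below Cbx7 and 23.9% below Cbx2. Of the paralogs, the post-mitotic form Ezh1 thus exceeded Ezh2, and Ring1 exceeded Rnf2, in every group.

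**Figure D1:**
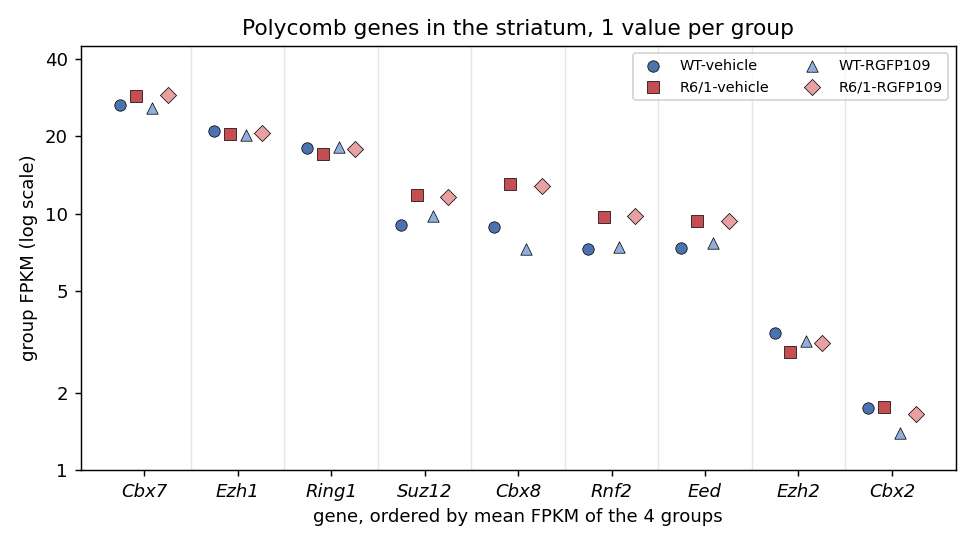
Level of each of the 9 Polycomb genes (y axis, FPKM on a log scale) in the 4 groups, 1 pooled value per group and so without error bars. Both R6/1 groups (squares and diamonds) lie above both WT groups (circles and triangles) for Cbx7, Suz12, Cbx8, Rnf2 and Eed, and Cbx8 runs from 7.29 to 13.0 FPKM.

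The first question was whether these genes differed between genotypes in mice not given the drug. A gene was counted as past the fold where its log2 difference of FPKM + 0.05 exceeded 0.5 in size. This held for 1 of the 9 genes between R6/1-vehicle and WT-vehicle, Cbx8, against 18.3% of the 16719 genes measured above a floor of 0.1 FPKM. By direction, 5.49% of genes were higher by that fold and 12.9% lower, so that more genes were lower than higher in R6/1 mice, while the 1 Polycomb gene past the fold was higher. At a smaller fold of 0.25, 4 of the 9 genes (44.4%) were higher, against 17.1% of all genes, and 1 (Ezh2) was lower, against 25.8% of all genes. The median log2 difference of the 9 genes was 0.08, beside -0.02 for all genes.

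The same comparison in mice given RGFP109 again placed 1 of the 9 genes past the fold, Cbx8, against 16.4% of 16734 genes (5.16% higher, 11.2% lower). At the fold of 0.25, 3 of the 9 (33.3%) were higher, against 15.1% of all genes, and 0 were lower, against 22.9%. The median was 0.20 for the 9 genes and 0.00 for all genes. The sign of the genotype difference was the same in both sets of mice for 8 of the 9 genes, against 80.6% of all genes. Being higher by more than 0.2 in both sets held for 4 of the 9 genes, against 12.8% of all genes. The cutoff of 0.2 was not fixed in advance and was not varied, and the set depends on it. Suz12, at 0.22 with RGFP109, did not pass 0.25, and Cbx8 alone passed 0.5 in both sets. Counted by levels alone, both R6/1 groups stood above both WT groups for 5 of the 9 genes, against 39.6% of all genes above the floor, and below both for 2 (Ezh2 and Ring1), against 32.5%. These averaged levels carry the shift toward R6/1 described above.

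**Figure D2:**
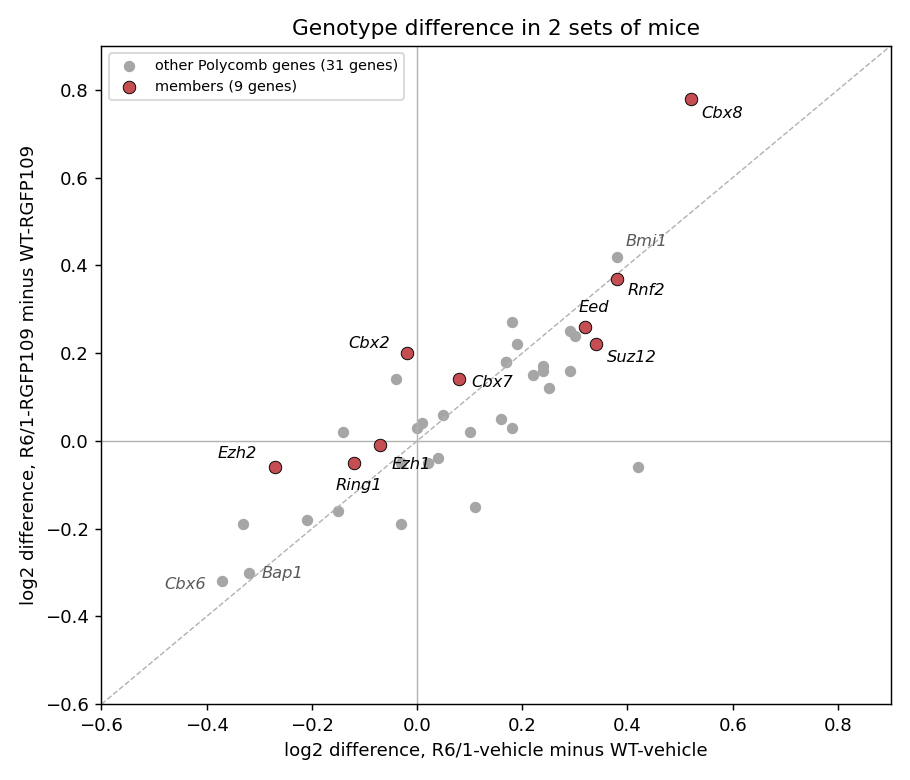
Genotype difference of each gene (log2 of FPKM + 0.05, R6/1 minus WT) in vehicle mice (x axis) and in RGFP109 mice (y axis), which share no library, for the 9 members (red) and 31 other Polycomb genes (grey), with a dashed line of equal difference. Cbx8 lies farthest out among the members, at 0.52 and 0.78, with Rnf2, Eed and Suz12 between 0.22 and 0.38 on both axes.

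Of the 4 PRC2 members, Eed and Suz12 were higher by more than 0.2 in both sets. This held for 0 of the 7 other PRC2 genes read beside them, against 12.8% of all genes. Among those 7, Mtf2 (0.24) and Phf19 (0.42) passed 0.2 with vehicle alone, and Phf1 (0.27) with RGFP109 alone. Eed (chr7:89954654-89980976 in mm10, minus strand) was 7.32 FPKM in WT-vehicle against 9.38 in R6/1-vehicle, and with RGFP109 7.66 in WT against 9.37 in R6/1 mice. Both R6/1 values were above both WT values, which differed little from each other. The log2 difference between genotypes was 0.32 with vehicle (1.25-fold) and 0.26 with RGFP109 (1.20-fold). A larger difference toward R6/1 was seen for 12% of all genes with vehicle and 14.6% with RGFP109.

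Suz12 (chr11:79993106-80034123, plus strand) was 9.06 FPKM (WT-vehicle), 9.75 (WT-RGFP109), 11.8 (R6/1-vehicle) and 11.6 (R6/1-RGFP109). It showed the same order as Eed, with both R6/1 groups on top. Its log2 difference was 0.34 with vehicle (1.27-fold) and 0.22 with RGFP109 (1.17-fold). Of all genes, 11.0% and 17.7% were higher by more in those comparisons.

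The 2 catalytic genes, Ezh1 and Ezh2, had log2 genotype differences below 0 in both sets. Ezh1 (chr11:101191115-101226463, minus strand) was 21.0 and 20.3 FPKM in the WT groups (vehicle, then RGFP109) and 20.5 and 20.6 FPKM in the R6/1 groups. This range was no wider than the shift of a value between tables, which says nothing of the spread between mice. The log2 genotype difference of Ezh1 in the table of each pair was -0.07 with vehicle and -0.01 with RGFP109, where the averaged levels have the other sign. That change of sign comes from the shift of averaged levels toward R6/1. Ezh2 (chr6:47530274-47595030, minus strand) was 3.44 FPKM in WT-vehicle against 2.90 in R6/1-vehicle, and with RGFP109 3.18 in WT against 3.13 in R6/1 mice. The lowest of these was the R6/1-vehicle value, and the log2 genotype difference was -0.27 with vehicle and -0.06 with RGFP109. With vehicle, 24.0% of all genes were lower by more than Ezh2. The level of Ezh1 was 6.12 and 6.40 times that of Ezh2 in the WT groups (vehicle, then RGFP109) and 7.07 and 6.60 times in the R6/1 groups.

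Set against the summed level of both catalytic genes, the Suz12 level was 0.370 in WT-vehicle and 0.415 in WT-RGFP109, and 0.503 in R6/1-vehicle and 0.490 in R6/1-RGFP109. For Eed the ratios were 0.299 and 0.326 in the WT groups and 0.401 and 0.394 in the R6/1 groups. Because the sum of Ezh1 and Ezh2 stayed between 23.4 and 24.5 FPKM, these ratios mostly follow Eed and Suz12 themselves. These are ratios of mRNA levels and say nothing of protein.

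PRC1 held the largest difference of the 9 genes. Cbx8 (chr11:119038436-119040913, minus strand), a chromodomain subunit that brings canonical PRC1 to methylated histone H3, was 8.86 FPKM (WT-vehicle), 7.29 (WT-RGFP109), 13.0 (R6/1-vehicle) and 12.8 (R6/1-RGFP109). The R6/1 groups lay close together and well above both WT groups, of which the RGFP109 group was the lower. Cbx8 was 1.44-fold higher in R6/1 mice with vehicle (log2 0.52) and 1.72-fold higher with RGFP109 (log2 0.78). Only 4.98% of all genes were higher by more with vehicle and 2.31% with RGFP109. The larger of these values came with the lower WT-RGFP109 level, since the R6/1 levels differed by -0.02 on the log2 scale, and the difference of 0.26 between the 2 genotype effects was not tested.

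Rnf2 (chr1:151469406-151500823, minus strand), the E3 ligase that carries most PRC1 activity in many cell types, was 7.25 and 7.38 FPKM in the WT groups (vehicle, then RGFP109) and 9.69 and 9.77 FPKM in the R6/1 groups. The WT groups were nearly equal, as were the R6/1 groups. The log2 difference was 0.38 with vehicle (1.31-fold) and 0.37 with RGFP109 (1.29-fold). Larger differences toward R6/1 were held by 9.08% and 8.34% of all genes. Of the 4 genes that were higher in both sets, Rnf2 had the most even difference between the sets.

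Its paralog Ring1 (chr17:34020792-34024680, minus strand) was 18.0 FPKM in WT-vehicle against 17.0 in R6/1-vehicle, and with RGFP109 18.1 in WT against 17.9 in R6/1 mice, with log2 genotype differences of -0.12 and -0.05. It therefore did not share the R6/1 level of Rnf2. The ratio of Rnf2 to Ring1 was 0.403 in WT-vehicle and 0.407 in WT-RGFP109, and 0.570 in R6/1-vehicle and 0.546 in R6/1-RGFP109.

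Cbx7 (chr15:79915807-79932646, minus strand), a CBX subunit abundant in differentiated cells, was 26.6 FPKM (WT-vehicle), 25.7 (WT-RGFP109), 28.8 (R6/1-vehicle) and 29.0 (R6/1-RGFP109). Both R6/1 groups were above both WT groups, but by log2 differences of only 0.08 and 0.14, and 36.5% and 27.8% of all genes were higher by more. Cbx2 (chr11:119023029-119031270, plus strand), whose product compacts nucleosomes, was 1.75 and 1.40 FPKM in the WT groups (vehicle, then RGFP109) and 1.77 and 1.65 FPKM in the R6/1 groups. It was the only member whose genotype difference changed sign between the sets, from -0.02 with vehicle to 0.20 with RGFP109, and WT-RGFP109 was its 1 group apart.

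**Figure D3:**
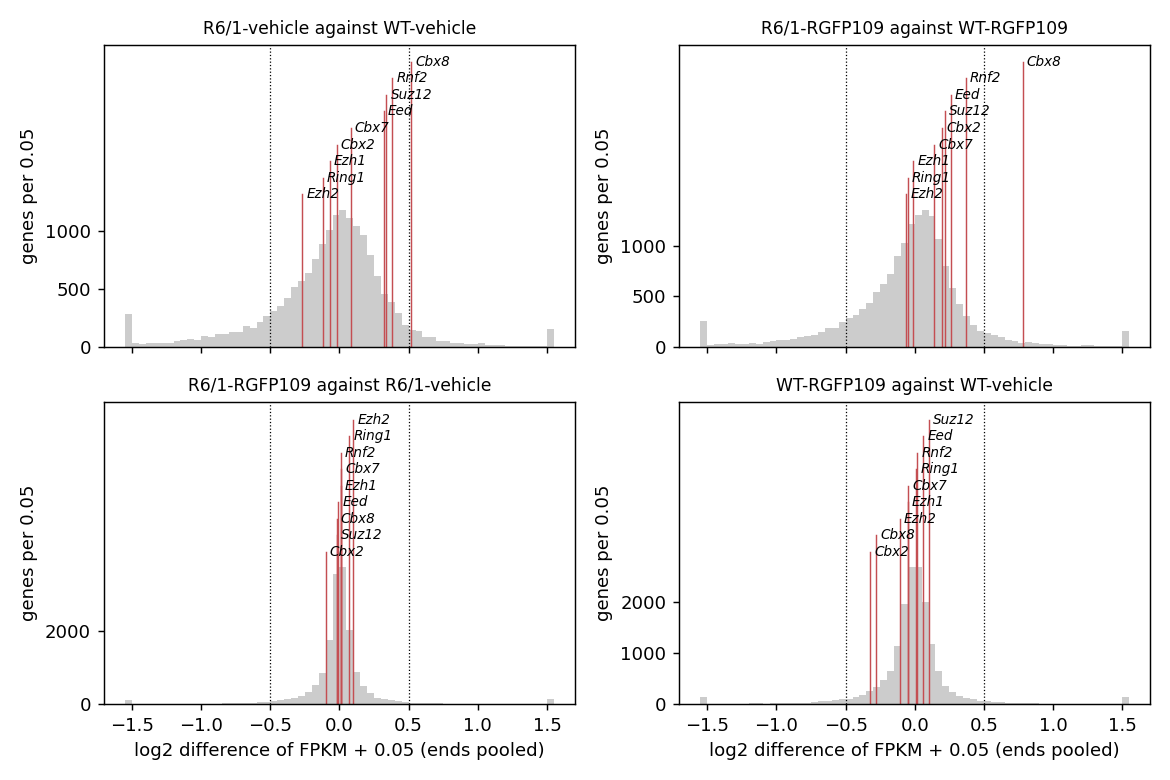
Distribution of the log2 difference over all genes above the floor (grey, number of genes per bin of 0.05) in the 4 comparisons, with the 9 Polycomb genes as red lines and the fold of 0.5 as dotted lines. Only the Cbx8 line passes a dotted line, in both genotype comparisons (top), and in the RGFP109 comparisons (bottom) all 9 lines stay inside.

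The second question was whether these genes differed between RGFP109 and vehicle. In R6/1 mice 0 of the 9 genes were past the fold, against 5.16% of 16651 genes, and the log2 differences of RGFP109 against vehicle ran from -0.10 (Cbx2) to 0.10 (Ezh2) with a median of 0.01. All 9 lay within the central range of genes above 1 FPKM, whose 5th and 95th percentiles were -0.19 and 0.19. For the 4 genes that were higher in R6/1 mice, the log2 differences were -0.02 (Cbx8), 0.01 (Rnf2), -0.02 (Suz12) and -0.01 (Eed). Each of the 4 was thus within 0.02 of its R6/1-vehicle level on that scale.

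In WT mice 0 of the 9 genes were past the fold, against 7.24% of 16722 genes, with a median of -0.05. Cbx2 and Cbx8 were lower with RGFP109, with log2 differences of -0.32 and -0.28, and 8.01% and 9.26% of all genes were lower by more. Genes above 1 FPKM had 5th and 95th percentiles of -0.29 and 0.22 in this comparison, so Cbx2 lay outside that range and Cbx8 just inside it. Suz12 was at 0.10 and Ezh2 at -0.11, and the other 5 genes lay between -0.05 and 0.06.

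The position of the genes was not used to choose them. Cbx2 and Cbx8 are neighbours on chromosome 11, 7166 bases apart in mm10. Their genotype differences were unlike, -0.02 and 0.20 for Cbx2 beside 0.52 and 0.78 for Cbx8, while both were lower in WT-RGFP109 than in WT-vehicle.

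The CBX proteins of canonical PRC1 are alternatives to each other. The level of Cbx8 was 0.333 of that of Cbx7 in WT-vehicle and 0.283 in WT-RGFP109, and 0.453 and 0.442 in the R6/1 groups (vehicle, then RGFP109). Against Cbx2, the level of Cbx8 was 5.05 and 5.21 times as high in the WT groups and 7.37 and 7.77 times as high in the R6/1 groups. Both ratios were thus higher in both R6/1 groups. Cbx6, another CBX gene of PRC1 and the most abundant of the other PRC1 genes read here, was 104 and 101 FPKM in the WT groups and 82.0 and 82.8 FPKM in the R6/1 groups, a difference of the opposite sign to that of Cbx8.

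**Figure D4:**
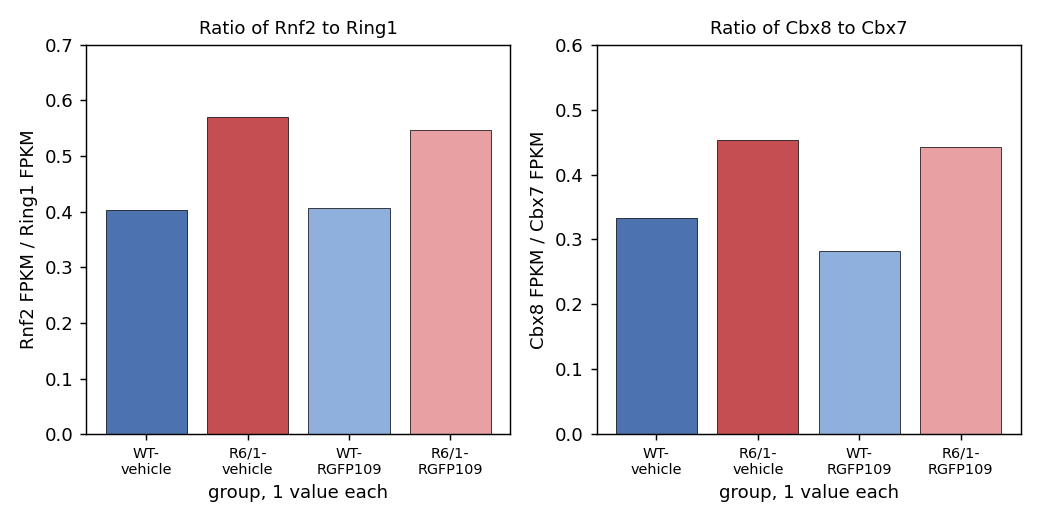
Ratio of Rnf2 to Ring1 FPKM (left) and of Cbx8 to Cbx7 FPKM (right) per group, 1 pooled value each, with y axes from 0 and no unit. The Rnf2 to Ring1 ratio is 0.403 and 0.407 in the WT groups against 0.570 and 0.546 in the R6/1 groups, and the Cbx8 to Cbx7 ratio is at most 0.333 in the WT groups and at least 0.442 in the R6/1 groups.

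Other Polycomb genes (other subunits of PRC2 and PRC1, the H2A deubiquitinase and the H3K27 demethylases) were read in the same way, and 31 of them are reported here, all above the floor. Their median log2 genotype difference was 0.11 with vehicle and 0.04 with RGFP109. At the fold of 0.25, 6 of the 31 were higher with vehicle (19.4%, against 17.1% of all genes) and 3 lower (9.68%, against 25.8%). With RGFP109, 3 were higher (9.68%, against 15.1%) and 2 lower (6.45%, against 22.9%). Higher by more than 0.2 in both sets were 3 of the 31 genes, against 12.8% of all genes. With RGFP109 against vehicle, 0 of the 31 were past the fold of 0.5 in either genotype, against 5.16% of all genes in R6/1 mice and 7.24% in WT mice. At shares this low few of 31 genes would be past it, so the count sets them apart from other genes in neither genotype.

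By role, the most abundant other PRC2 gene was Rbbp7, a histone-binding subunit, with log2 genotype differences of 0.04 and -0.04. Cbx6 was lower in R6/1 mice, with differences of -0.37 and -0.32, and 18.1% and 18.6% of all genes were lower by more. Bap1, the catalytic subunit of the deubiquitinase that removes the PRC1 mark from histone H2A, was 56.2 and 55.6 FPKM in the WT groups (vehicle, then RGFP109) and 46.0 and 46.3 FPKM in the R6/1 groups, with differences of -0.32 and -0.30. Lower by more than Bap1 were 21.1% and 19.9% of all genes. Kdm6a, which removes methyl groups from H3K27, differed by 0.16 and 0.05. The 3 of the 31 genes that were higher by more than 0.2 in both sets are named after their values were seen. They were Kdm6b, the other H3K27 demethylase read here (0.29 and 0.25), the PRC1 gene Pcgf6 (0.30 and 0.24) and Bmi1, a partner of RING1 and RNF2 in canonical PRC1. Bmi1 was 8.91 FPKM in WT-vehicle against 11.9 in R6/1-vehicle, and with RGFP109 8.77 in WT against 12.1 in R6/1 mice, with log2 differences of 0.38 and 0.42. Higher by more than Bmi1 were 9.16% and 6.64% of all genes.

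Genes that Polycomb complexes are known to silence were read as a list of 41, the 39 Hox genes and Cdkn2a and Cdkn2b, which encode inhibitors of the cell cycle. Cdkn2a was 0.0282 FPKM (WT-vehicle), 0.0599 (WT-RGFP109), 0.470 (R6/1-vehicle) and 0.505 (R6/1-RGFP109). Both R6/1 groups were above both WT groups, with log2 differences of 2.71 and 2.31 on the scale with 0.05 FPKM added, and only 0.670% and 0.741% of all genes were higher by more. It passed the floor only through its R6/1 values, and the reads behind values this low are unknown. Cdkn2b was 0.284 and 0.230 FPKM in the WT groups (vehicle, then RGFP109) and 0.537 and 0.262 FPKM in the R6/1 groups. It stood apart in R6/1-vehicle alone, with a genotype difference of 0.78 with vehicle, 0.13 with RGFP109, and -0.92 between R6/1-RGFP109 and R6/1-vehicle.

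Of the 39 Hox genes, 14 were listed at 0 in every group and 0 passed the floor. The highest mean was that of Hoxd1, at 0.0642 FPKM. Among the 25 listed above 0 in any group, both R6/1 groups were above both WT groups for 8 (32%), against 13.4% of the 3549 genes that were likewise at or under the floor. Of these 8, 4 were at 0 in both WT groups and so entered the count through R6/1 values alone, and nothing about the Hox genes is read from the count. Hoxd1 was 0.124 and 0.0323 FPKM in the WT groups (vehicle, then RGFP109) and 0.0647 and 0.0355 FPKM in the R6/1 groups, lower in R6/1 mice with vehicle. Hoxa7, named after its values were seen, was 0.0288 FPKM in WT-vehicle against 0.0995 in R6/1-vehicle, and with RGFP109 0 in WT against 0.0813 in R6/1 mice. Hox genes above 0 numbered 13 in WT-vehicle (5 libraries) and 7 in WT-RGFP109 (6 libraries), and 18 in R6/1-vehicle (6 libraries) and 20 in R6/1-RGFP109 (7 libraries), and the part of the number of libraries in this was not tested. The Hox genes share 4 clusters and so are not independent of each other.

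**Figure D5:**
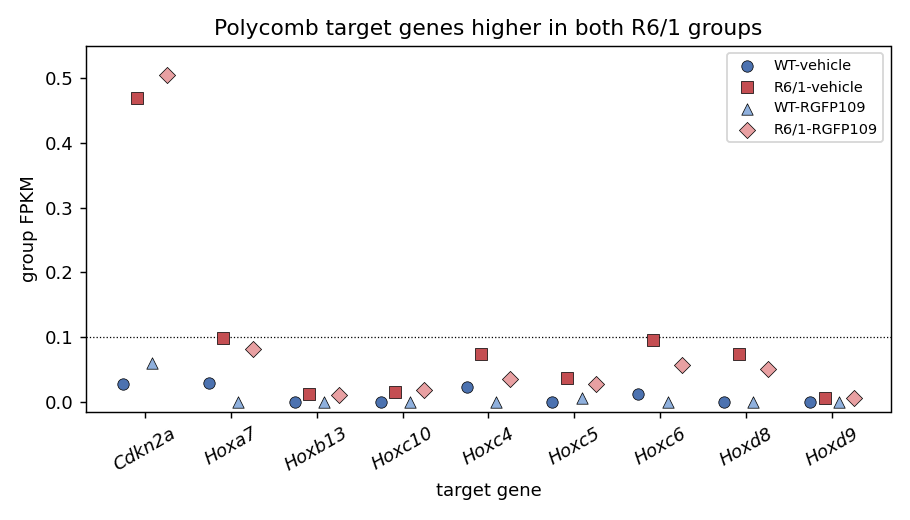
FPKM (y axis, linear) in the 4 groups of the 9 Polycomb target genes whose R6/1 values both exceed both WT values, chosen by that order, with the floor of 0.1 FPKM as a dotted line. Cdkn2a reaches 0.470 and 0.505 FPKM in R6/1 mice, while all 8 Hox genes stay under the floor.

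Cell type markers differed with genotype and with treatment, and their part in the values above was not tested. In bulk tissue, fewer cells of a type and less RNA per cell cannot be told apart. Markers of the labelled tissue were present: none of the 8 markers of striatal projection neurons was at 0, and their summed level was 3158 FPKM in WT-vehicle. That sum was 3031 in WT-RGFP109, and 1245 and 1118 in the R6/1 groups (vehicle, then RGFP109), with 8 of 8 markers lower in R6/1 mice in both sets. Markers of astrocytes summed to 344 and 348 FPKM in the WT groups and 275 and 266 in the R6/1 groups (5 of 5 lower in both sets), and those of microglia to 179 and 177 against 153 and 151 (6 of 6 lower in both).

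Ezh2 is typical of dividing cells, and the 8 markers of proliferating cells summed to 6.76 FPKM (WT-vehicle), 5.89 (WT-RGFP109), 5.86 (R6/1-vehicle) and 6.90 (R6/1-RGFP109). Of these, 7 of 8 were lower in R6/1-vehicle than in WT-vehicle, as Ezh2 was, and 2 of 8 lower in R6/1-RGFP109 than in WT-RGFP109. Markers of neuroblasts summed to 23.0 and 21.7 FPKM in the WT groups (vehicle, then RGFP109) and 24.3 and 26.9 FPKM in the R6/1 groups, with 3 of 5 higher in R6/1 mice with vehicle and 5 of 5 with RGFP109, the sign of Cbx8, Rnf2, Suz12 and Eed. For Cbx2 and Cbx8, which were lower in WT-RGFP109 than in WT-vehicle, the markers of choroid plexus summed to 37.6 FPKM in WT-vehicle and 14.9 in WT-RGFP109, with 6 of 6 lower, and those of oligodendrocytes to 1629 and 1312, with 5 of 5 lower. Other lists also fell there, with 6 of 6 neocortical, 4 of 5 neuroblast, 6 of 8 proliferation and 6 of 8 projection neuron markers lower. Of the astrocyte markers 2 of 5 were lower, and of the microglia markers 3 of 6. In R6/1 mice, where RGFP109 and vehicle levels of Cbx2 and Cbx8 differed by -0.10 and -0.02, choroid plexus markers summed to 22.7 FPKM with vehicle and 9.03 with RGFP109, with 6 of 6 lower, and those of oligodendrocytes to 1019 and 1121, with 5 of 5 higher. Neocortical markers summed to 347 and 321 FPKM in the WT groups (vehicle, then RGFP109) and 196 and 250 FPKM in the R6/1 groups. No marker of the 8 lists was at 0 in any group.

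Some of these genes share exonic bases with a gene on the other strand, from which their reads cannot be told apart without strand information. In the GENCODE annotation of the same assembly, the shared part was 6.82% of the exonic bases of Eed (with E230029C05Rik), 3.83% of Rnf2 (Trmt1l), 3.60% of Suz12 (Gm26563), 2.61% of Ezh2 (Gm26625) and 1.54% of Cbx7 (Apobec3). The partner of Eed differed between genotypes by -0.44 and -0.41, opposite in sign to Eed, and that of Rnf2 by 0.13 and 0.13. Cbx8, Ezh1, Ring1 and Cbx2 overlapped no other annotated gene.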

How the data were processed

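Striatal RNA was prepared as 24 libraries with a TruSeq RNA kit, and single reads were aligned by the authors with STAR 2.5.0b to mm10 with RefSeq genes. The authors deposited 6 tables made with Cuffdiff (Cufflinks 2.2.1), 1 per pair of groups, with 1 FPKM value per group. Each of the pair of sequencing pools held libraries of all 4 groups. Strand use was not given in the sources used here. The tables also hold the authors' fold changes and p-values, which were not used. From the FPKM values, log2 differences were computed in the table of each pair after 0.05 FPKM was added, for genes whose mean of the 2 groups was above 0.1 FPKM, with a fold of 0.5. A level is the mean over the 3 tables that hold a group. Values per library were not analysed here, so no test was made. Starts were shifted by 1 to count from 1. Promoters came from RefSeq. Markers, the wider list, the target list and the 9 members were chosen with earlier results of these data known. Of the wider list, 1 gene is not reported here. Named by rule were all members and, of the wider list, genes past the fold and the most abundant of each role. Of the targets, the rule named the 3 most abundant and the largest vehicle differences above the floor, which only 2 targets passed. Named after their values were seen were Bmi1, Pcgf6, Kdm6b, Mtf2, Phf1, Phf19 and Hoxa7. The calculation was tested on simulated data with planted changes larger than any difference of the members, so that test does not reach differences of their size. Python 3.11.15, numpy 2.4.6 and pandas 2.3.3 were used. Alternatives were other folds, floors, pseudocounts, scalings and tables.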

Additional observations from a re-analysis of the deposited data

How the results depend on the processing

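The 36 log2 differences of the 9 genes (4 comparisons each) kept their sign with no pseudocount, with 1 FPKM added, after centring on the median gene and when routed through the other tables, and moved by at most 0.01, or 0.12 with 1 FPKM added. A change of pseudocount could not alter a sign, and the other tables hold the same libraries. The kept signs therefore say nothing of the spread between mice. With 1 FPKM added, the vehicle genotype difference of Cbx8 was 0.48 in place of 0.52, just short of the fold, so that 0 members were past it. With a fold of 0.25, members past it numbered 5 and 3 between genotypes (vehicle and RGFP109), 2 for RGFP109 in WT mice, and the 31 other Polycomb genes 9 and 5 between genotypes and 1 for RGFP109 in R6/1 mice, where the shares of all genes were 42.9% and 38.0% between genotypes, 17.6% for RGFP109 in WT mice and 13.0% in R6/1 mice. With a fold of 1, both genotype counts of members were 0. Counts of members could not change without a floor or with a floor of 1 FPKM, since all 9 were above 1 FPKM in every group. With a floor of 1 FPKM, the shares of all genes past the fold of 0.5 were 14.3% and 12.3% between genotypes (vehicle and RGFP109). For RGFP109 they were 3.0% in R6/1 mice, in place of 5.16%, and 3.9% in WT mice, in place of 7.24%. Within each group alone, 7 of the 9 genes kept their rank by FPKM, with exchanges among Suz12, Cbx8, Rnf2 and Eed. Leaving out single libraries was not run, since each table carries 1 value per group. No paired analysis was possible because the columns carry no replicate. The depth behind the values is unknown, which limits most of all the Hox genes and Cdkn2a.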

Other observations

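Between R6/1-RGFP109 and WT-vehicle, 2 groups that differ in both factors, the log2 differences were 0.50 for Cbx8, 0.39 for Rnf2, 0.33 for Suz12 and 0.32 for Eed, each within 0.02 of the genotype difference with vehicle. These values reuse the groups of the comparisons above. Phf19, an accessory subunit of PRC2 named after its values were seen, was 0.248 FPKM in WT-vehicle against 0.358 in R6/1-vehicle, and with RGFP109 0.279 in WT against 0.273 in R6/1 mice. It stood apart in R6/1-vehicle alone, with a genotype difference of 0.42 with vehicle and -0.06 with RGFP109, and of the wider list it had the largest difference between R6/1-RGFP109 and R6/1-vehicle, -0.34. Whether these differences exceed the spread between mice was not tested.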
